A study of Mus musculus with 21 samples.

Results

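The 84 genes described here are those of 33861 in the count table whose symbols name nuclear-encoded parts of the oxidative phosphorylation machinery. They were taken by symbol alone, as the Nduf, Sdh, Uqcr, Cox and Atp5 families, without pseudogenes named -ps and without the assembly factors named Ndufaf and Sdhaf. Of these, 36 belong to complex I, 4 to complex II, 8 to complex III, 18 to complex IV and 15 to complex V. The other 3, Atp5s, Atp5sl and Cox7a2l, share the family names but are not subunits of a mature complex.

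Oxidative phosphorylation is carried out by protein complexes of the inner mitochondrial membrane. Complexes I and II pass electrons from NADH and succinate to ubiquinone, complex III passes them to cytochrome c and complex IV to oxygen. Complexes I, III and IV move protons out of the matrix as they do so, and complex V, the ATP synthase, lets them return and makes ATP. All but complex II also hold subunits encoded in mitochondrial DNA, so 2 genomes have to supply the parts. The passage from the naive to the primed pluripotent state, which the epiblast goes through around implantation, is known for a turn from mixed oxidative and glycolytic metabolism toward glycolysis.

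RNA from 21 mouse samples was sequenced. Formative stem cells (FS), a cultured state between naive and primed pluripotency, came from 2 lines in medium A3XR, with passages 10, 11 and 18 of line 1 and passages 12, 13 and 16 of line 2. Epiblast stem cells (EpiSCs) carrying the line name E14 were kept in the media AF or AFX, with passages 14, 15 and 16 of each, and 3 single epiblasts were collected at each of 3 stages, E5.0, E5.5 and E6.0. Labels do not spell out the media, name no genotype, strain, treatment or batch, and give 1000 cells for each cultured sample. In one label field the third stage is E6.5 and in the titles E6.0, and the title is used here. Within a line, cultured replicates differ in passage number alone, so p-values over them measure a spread that may be technical. Each EpiSC medium is represented by 1 line.

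Total counts were 7703118 to 15916800 in cultured samples and 5827093 to 13006656 in epiblasts, which puts 3 counts at 0.171 to 0.590 CPM (counts scaled to a common library size). All 8 epiblast and pluripotency markers, among them Pou5f1, Sox2 and Otx2, were detected in every sample, with sums of 1232 to 2895 CPM in cultured samples and 3907 to 7182 CPM in epiblasts. The 3 predicted loci Gm23935, Gm26917 and Gm42418 together took 15.4% to 24.1% of each library. Visceral endoderm markers summed to 654 to 1268 CPM at E5.0, 171 to 221 at E5.5, 120 to 149 at E6.0 and 42.4 to 279 in cultured samples. In these bulk samples, fewer cells of a type and less RNA per cell cannot be told apart. Whether reads matching several places were counted, and on which strand, is not given in the sources used here. Values of subunit genes with a pseudogene named after them in the annotation, such as Cox6c, Uqcrh, Ndufab1, Atp5c1, Atp5k and Atp5l, and of genes overlapping another on the opposite strand, such as Ndufa11 with Vmac and Atp5j with Gabpa, are therefore uncertain.

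Levels are given as CPM scaled by the trimmed mean of M values (TMM) over all 21 samples, and levels of different genes are compared as CPM per kb of exon. On that scale the catalytic core of ATP synthase stood highest, with Atp5a1 (alpha subunit) at 200.5 and Atp5b (beta subunit) at 151 CPM per kb over all samples. The leading genes of the other complexes were Cox8a in complex IV at 99.0, Uqcrb in complex III at 77.4, Ndufb9 in complex I at 46.3 and Sdha in complex II at 35.4 CPM per kb. Ndufb2 at 0.583 and Atp5l at 1.77 CPM per kb were lowest in complexes I and V. The lengths join all annotated exons of a gene, 5628 bases for Ndufb2 and 6443 for Atp5l, and a longer length lowers the value. In CPM, at 3.28 and 11.4, these genes were also the lowest of their complexes. The subunits of a complex are needed in fixed proportion in the protein, but their RNA levels per kb spanned a wide range. The part of the exon lengths in that range was not tested.

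With TMM scaling, 19 of 36 subunit genes of complex I, 2 of 4 of complex II, 8 of 8 of complex III, 11 of 15 tested of complex IV and 13 of 15 of complex V were lower in cultured cells than in epiblasts, where 27.9% of all genes were. With scaling to total counts, 9, 1, 5, 8 and 7 of these stayed lower, where 18% of all genes were lower and 43.9% higher. The 12 cultured samples summed to 3988 to 4627 CPM over the 84 genes and the 9 epiblasts to 5223 to 6481 CPM. The groups did not overlap on this scale. Complex V gave 1695 to 1929 CPM in cultured samples and 2310 to 2774 CPM in epiblasts. Complex IV gave 534 to 718 against 724 to 1324 CPM, and complex III 328 to 439 against 456 to 654 CPM. Complex I, at 1104 to 1318 against 1331 to 1517 CPM, also did not overlap, whereas complex II did, at 214 to 260 against 242 to 320 CPM.

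**Figure D1:**
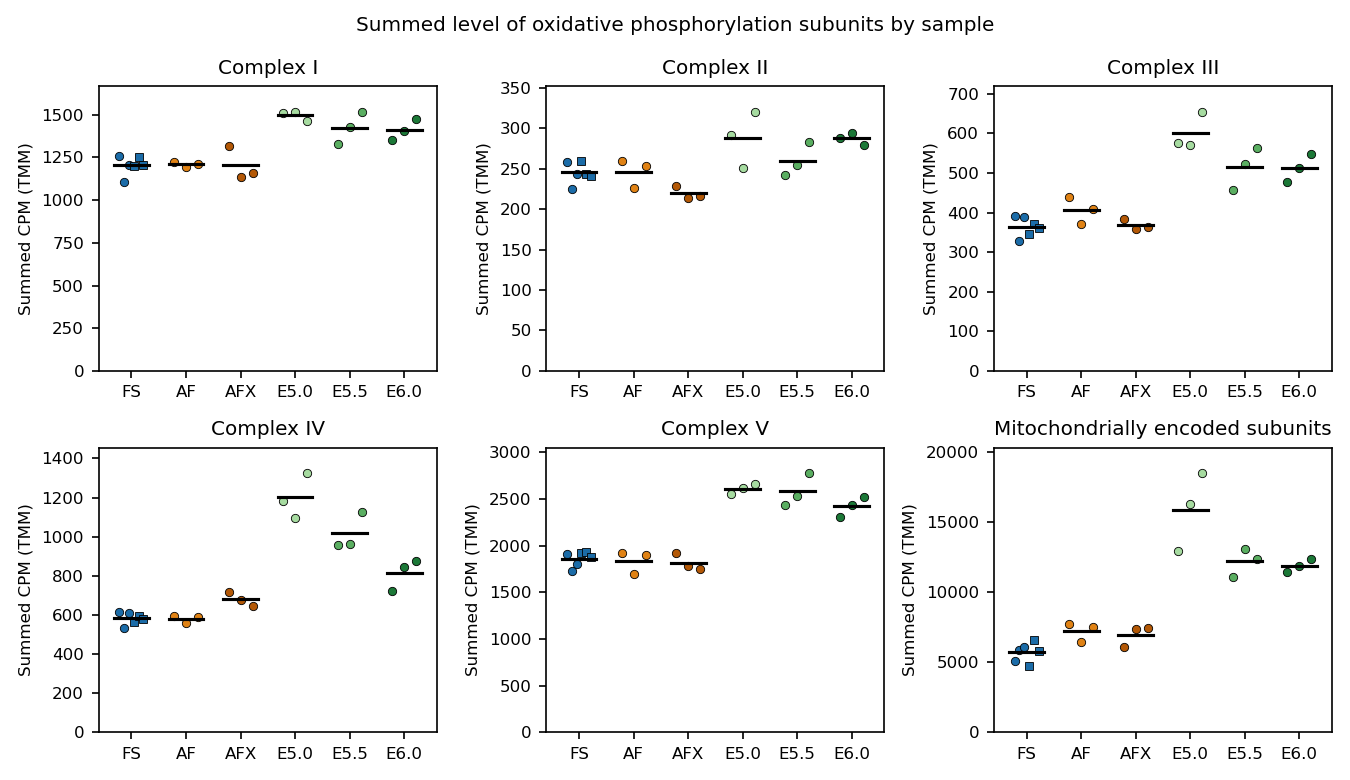
Summed CPM (TMM, linear axis from 0) of the nuclear subunit genes of each complex, and of the 13 mitochondrially encoded subunits, in every sample; bars are group means and, in FS, circles are line 1 and squares line 2. Complexes I, III, IV and V lay lower in all 12 cultured samples than in any of the 9 epiblasts, and among the stages complex IV was lowest at E6.0.

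In the test of cultured against epiblast samples (edgeR quasi-likelihood, the mean of FS, AF and AFX against the mean of the 3 stages, adjusted p under 0.05), 54 of the 81 members tested were lower and 4 were higher. Of all 16614 genes tested, 27.9% were lower and 33.9% higher (61.8% in either direction), so the members' share of lower genes, 66.7%, stood above that background. Of the 81 members tested, 16 (19.8%), all among the 54, had every cultured sample below every epiblast, a pattern that 5.80% of all genes tested showed. The median log2 fold change was -0.31 over the members and 0.09 over all genes. By complex it was -0.23 (I), -0.20 (II), -0.54 (III), -0.50 (IV) and -0.43 (V). These sizes depend on the scaling, since TMM factors were 1.038 to 1.105 in cultured samples and 0.867 to 0.971 in epiblasts. Scaled to total counts, a setting added after the data were seen, 31 of the 54 stayed lower, 18 lost their call, and Atp5f1, Ndufs1, Atp5h, Uqcrfs1 and Atp5g2 turned to small positive values that did not pass. The split of lower to higher members went from 54 and 4 to 31 and 7. That scaling moved the medians to -0.09 and 0.30, and the distance between members and all genes was -0.40 with TMM and -0.39 with total counts. As a share of raw counts, the members took 0.425% to 0.494% of cultured libraries and 0.494% to 0.598% of epiblast libraries. On that scale the groups overlapped at their edge, with FS line 1 passage 10 at 0.4941% and E6.0 embryo 2 at 0.4938%.

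**Figure D2:**
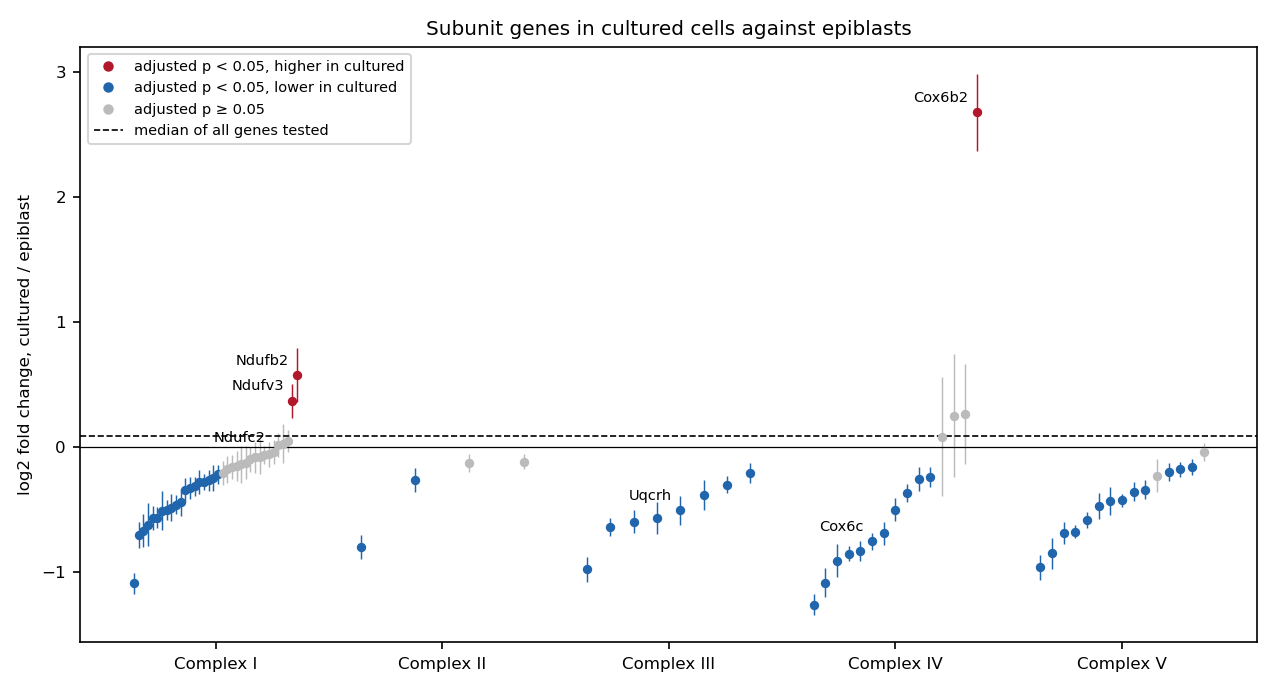
The log2 fold change of each subunit gene tested, cultured over epiblast samples, by complex and ordered by size, with standard error bars; blue and red mark adjusted p under 0.05. Most genes of each complex lay below the dashed median of all genes tested (0.09), and Cox6b2 stood alone at 2.68.

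In complex I, with TMM scaling, all 7 core subunits, the ones with bacterial counterparts that carry the redox centres and the quinone site, were lower in cultured samples (Ndufs1 reached 0.00 with total counts). Of the 19 lower calls in the whole complex, 9 stayed with total counts. Among the core subunits, Ndufv1, which binds NADH, gave 45.0, 50.8 and 60.4 CPM (lowest, median and highest) in cultured samples and 61.2, 67.1 and 85.1 CPM in epiblasts. The groups did not overlap, and the log2 fold change was -0.46 ± 0.08 (SE, adjusted p = 1.66e-05, edgeR). Ndufs3, a core subunit of the arm that reaches into the matrix, changed by -0.57 ± 0.08. Of the 29 accessory subunits, 12 were lower, 2 higher and 15 did not pass. The largest difference among them was that of Ndufs5, at 10.01 to 30.7 CPM in cultured samples and 28.5 to 42.6 CPM in epiblasts (-1.09 ± 0.09), where the overlap came from the FS samples alone. The 2 that were higher in cultured cells were Ndufv3 (0.37 ± 0.13, adjusted p = 0.0203) and Ndufb2 (0.58 ± 0.22, adjusted p = 0.0262), and their groups overlapped.

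Of the 4 subunits of complex II, which is wholly nuclear-encoded, both membrane anchors were lower in cultured samples with TMM scaling. With total counts 1 of these 2 calls stayed. Sdhd gave 19.2, 28.7 and 43.6 CPM in cultured samples and 36.5, 50.2 and 67.0 CPM in epiblasts, with a log2 fold change of -0.80 ± 0.10 (adjusted p = 1.989e-07, edgeR). The Sdhd values overlapped through the FS samples. Sdhc changed by -0.26 ± 0.10. The catalytic pair, the flavoprotein Sdha (-0.12 ± 0.06, adjusted p = 0.0937) and the iron-sulfur protein Sdhb (-0.13 ± 0.07, adjusted p = 0.118), did not pass.

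All 8 complex III genes were lower with TMM scaling. With total counts 5 of the 8 calls stayed, and Uqcrfs1 turned positive. Uqcr11, a small subunit at the edge of the complex, gave 14.4, 20.2 and 23.7 CPM in cultured samples and 30.9, 39.1 and 52.0 CPM in epiblasts. Every cultured sample lay below every epiblast (-0.98 ± 0.10, adjusted p = 1.76e-08, edgeR). Uqcrc1, a core protein on the matrix side, gave 76.7 to 100.3 CPM against 117 to 174 CPM and changed by -0.64 ± 0.07. The smallest change was that of Uqcrfs1, the Rieske iron-sulfur protein, at -0.21 ± 0.08.

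In complex IV, cytochrome c oxidase, all 11 widely expressed nuclear subunits were lower in cultured samples with TMM scaling, and 8 of these calls stayed with total counts. None of the 4 tissue-restricted isoforms tested was lower. Of these isoforms, Cox4i2, Cox7a1 and Ndufa4l2 had standard errors of 0.40 to 0.49, so a small decrease in them could go uncalled. Cox7c gave 36.3, 43.3 and 60.9 CPM in cultured samples and 84.5, 109 and 149 CPM in epiblasts, without overlap (-1.26 ± 0.09, adjusted p = 3.955e-11, edgeR). Cox4i1, the largest nuclear subunit, gave 60.0, 73.6 and 78.8 CPM against 91.5, 141 and 159 CPM, also without overlap (-0.86 ± 0.06). Cox7a2 (-1.09 ± 0.12), Cox7b (-0.91 ± 0.13) and Cox5a (-0.83 ± 0.08) had groups that did not overlap either. The changes of Ndufa4 (-0.26 ± 0.10), named for complex I but a subunit of complex IV, and Cox6b1 (-0.24 ± 0.08) were the smallest of the 11.

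In complex V, 13 of 15 genes were lower with TMM scaling, including all 5 of the catalytic F1 part and all 3 genes for the c subunit of the rotating ring. With total counts 7 of the 13 calls stayed. Atp5a1 gave 456, 510 and 547 CPM in cultured samples and 681, 783 and 908 CPM in epiblasts, without overlap (-0.68 ± 0.05, adjusted p = 3.257e-10, edgeR). Atp5b gave 494, 553 and 640 CPM against 678, 755 and 826 CPM and changed by -0.43 ± 0.05. The 3 genes for the c subunit encode the same mature protein, and their changes were -0.96 ± 0.10 for Atp5g1, -0.47 ± 0.10 for Atp5g3 and -0.20 ± 0.07 for Atp5g2 (0.02 and no longer called with total counts). Atp5k (-0.23 ± 0.13, adjusted p = 0.141) and Atp5j (-0.04 ± 0.07, adjusted p = 0.628) did not pass. Of the 3 genes that are not subunits, Atp5sl was lower (-0.70 ± 0.10), Cox7a2l did not pass (-0.13 ± 0.10) and Atp5s was higher, at 1.58 to 3.79 CPM in cultured samples and 0 to 1.04 CPM in epiblasts.

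The single comparison of FS cells with the E5.5 epiblast shares its FS and E5.5 samples with the one above, and its values are given beside it without further comparison. There 40 of 81 members were lower and 2 higher (51.9% in either direction), where 20.8% of all genes were lower, 23.0% higher and 43.8% changed in either direction. The median log2 fold change was -0.36 over the members and 0.08 over all genes, and with total counts 16 members stayed lower and 6 were called higher, where 12.5% of all genes were lower and 32.4% higher. Uqcr11 had the largest called decrease (-1.37 ± 0.15), from a mean of 49.6 ± 3.25 CPM (SD, n = 3) at E5.5 to 19.1 ± 3.75 CPM (SD, n = 6) in FS cells. By complex, 14 of 36 genes of complex I were lower in FS cells, 4 of 8 of complex III, 10 of 15 of complex IV and 11 of 15 of complex V, with TMM scaling. With total counts 1 of the 14 calls of complex I stayed, 3 of 4 of complex III, 6 of 10 of complex IV and 6 of 11 of complex V. The 4 genes of complex II did not pass, with values of -0.02 ± 0.11 (Sdhb) to -0.15 ± 0.15 (Sdhc) and adjusted p of 0.436 to 0.908 (edgeR). In complex IV, with TMM, Cox6c changed by -1.08 ± 0.10, Cox5a by -1.05 ± 0.12 and Cox4i1 by -0.95 ± 0.09, while Cox6b2 was higher. In complex V, Atp5g1 changed by -1.12 ± 0.15 and all 5 genes of the F1 part were lower.

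Other parts of the system were compared by lists, in cultured against epiblast samples. With TMM scaling, 27.9% of all genes were lower and 33.9% higher. The lists were not fitted with total counts, which moved the median of all genes from 0.09 to 0.30. Of the 13 mitochondrially encoded subunits, 12 were lower in cultured samples than in epiblasts, by -0.38 (mt-Atp6) to -1.54 (mt-Nd3) on the log2 scale, and their sum was 4715 to 7749 CPM against 11101 to 18497 CPM. The exception was mt-Nd6, which is encoded on the other strand of the mitochondrial DNA and was higher (0.63 ± 0.13). Of 14 regulators of mitochondrial biogenesis tested, 9 were lower and 2 higher. The lower ones included the transcription factors Gabpa (-0.51), Yy1 (-0.51), Nrf1 (-0.28) and Myc (-1.32) and the mitochondrial DNA packaging factor Tfam (-0.58), and the higher ones were Ppargc1b and Esrrb. Of 39 assembly factors, 9 were higher and 5 lower, with a median of 0.13. Among them Cox17, a copper chaperone for complex IV, was higher (1.095 ± 0.27) and Ecsit, a complex I assembly factor, was lower (-0.68 ± 0.12). Of 50 large ribosomal subunit genes, another group of short abundant genes, 44 were lower, with a median of -0.51. Visceral endoderm markers differed too, with 10 of 14 tested lower and 2 higher in cultured cells, and Afp, Ttr, Apoa4, Apob and Hnf4a at 0 in all FS samples. Feeder fibroblast markers were higher in cultured cells (6 of 8 tested), at 190 to 923 CPM against 30.2 to 159 CPM, with 1 lower. Of the 8 epiblast and pluripotency markers, whose sums did not overlap, 5 were lower and 2 higher in cultured cells. Of 8 extraembryonic ectoderm markers tested, 2 were lower and 1 higher, and their sums overlapped, at 46.1 to 191 against 56.5 to 224 CPM. The part of these lists in the subunit differences was not tested.

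Promoters of subunit genes are known for matches to a few factors, of which NRF1, the ETS factor GABP and YY1 are measured above, so, as a choice made after the data were seen, the start regions were searched for GCATGCGC (NRF1 core), CCGGAAG (ETS core) and AAGATGGCG (YY1), on both strands. RefSeq windows of build GRCm38.p6, 250 bases before to 50 after the start, were at hand for 66 of the 84 members. The NRF1 core lay in 15.2% of the members (10 of 66) and 3.05% of all 27025 genes with a window. For the ETS core the shares were 24.2% and 9.93%, and for the YY1 letters 10.6% and 1.64%. Members with an NRF1 match were lower in cultured cells in 6 of 10 cases and the other tested members in 36 of 55. For the ETS core these counts were 12 of 16 and 30 of 49, and for YY1 4 of 7 and 38 of 58. The stretches below, before the start and free of annotated exons, show 2 windows with the NRF1 core, 2 with the ETS core and, for contrast, that of Cox6b2, the subunit gene with the largest increase in cultured cells. Each reads 5′ to 3′ on the gene's strand, with matches in capitals. NRF1 letters that overlap their own reverse complement form one longer run. Cox6a1 lies at chr5:115348982-115349129 (minus strand), Ndufa11 at chr17:56717686-56717761 (plus), Uqcr11 at chr10:80406831-80407001 (minus), Uqcrh at chr4:116075072-116075250 (minus) and Cox6b2 at chr7:4753095-4753225 (minus).
Cox6a1: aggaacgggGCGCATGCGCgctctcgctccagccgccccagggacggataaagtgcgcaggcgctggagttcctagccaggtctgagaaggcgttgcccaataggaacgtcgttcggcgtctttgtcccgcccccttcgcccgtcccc
Ndufa11: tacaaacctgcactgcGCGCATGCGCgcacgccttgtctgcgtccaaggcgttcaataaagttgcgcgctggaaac
Uqcr11: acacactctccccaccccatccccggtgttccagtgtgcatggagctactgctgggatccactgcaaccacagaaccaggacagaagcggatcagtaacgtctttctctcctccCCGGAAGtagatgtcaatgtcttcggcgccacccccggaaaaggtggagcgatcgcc
Uqcrh: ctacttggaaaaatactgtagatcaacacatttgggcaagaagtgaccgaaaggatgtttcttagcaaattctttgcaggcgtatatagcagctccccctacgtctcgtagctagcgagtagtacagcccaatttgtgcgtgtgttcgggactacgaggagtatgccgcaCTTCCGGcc
Cox6b2: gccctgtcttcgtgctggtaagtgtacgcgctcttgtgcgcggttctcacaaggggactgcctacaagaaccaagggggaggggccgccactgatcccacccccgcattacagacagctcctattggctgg
The NRF1 match of Cox6a1 began 162 bases before the start and that of Ndufa11 60 bases before it, while the ETS match of Uqcr11 began at 66 and that of Uqcrh at 10. The NRF1 match of Uqcr11 and the ETS match of Cox6a1, at 4 and 16 bases before the start, lie outside the printed stretches. A match is a description of the letters and does not show binding.

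Across the epiblast stages the called changes lay mostly in complex IV, whose summed level went from 1097 to 1324 CPM at E5.0 to 958 to 1128 CPM at E5.5 and 724 to 877 CPM at E6.0. Between E6.0 and E5.0, 10 of 79 members were lower and 1 higher (edgeR, adjusted p under 0.05), where 11.6% of all 14228 genes were lower, 10.2% higher and 21.8% changed in either direction, so the members' share of lower genes, 12.7%, was near the background. Of the 10, 6 belonged to the 14 complex IV genes tested. The median log2 fold change was -0.63 in complex IV, -0.15 in complex I, -0.09 in complex II, -0.24 in complex III and -0.23 in complex V. The sums of complex I were 1465 to 1517 CPM at E5.0, 1331 to 1517 at E5.5 and 1355 to 1474 at E6.0, and those of complex V 2552 to 2659, 2435 to 2774 and 2310 to 2523 CPM. Neighbouring stages overlapped in both, though the E6.0 sums of complex V lay below those of E5.0. The sums of complex III were 570 to 654 CPM at E5.0, 456 to 564 at E5.5 and 477 to 548 at E6.0. Its E5.0 values thus lay above those of both later stages. In complex IV the E6.0 values lay below all others. With 3 embryos a stage, groups without overlap are common. From E5.0 to E6.0, 21 of 79 members were lower and 4 higher without overlap, beside 18.2% and 20.6% of all genes. From E5.0 to E5.5 the shares of all genes were 11.2% lower and 12.8% higher, and from E5.5 to E6.0 15.3% and 15.5%.

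Cox6c, a small subunit without a bacterial counterpart, gave 279, 332 and 304 CPM in the 3 E5.0 epiblasts, 240, 244 and 254 CPM at E5.5 and 149, 182 and 185 CPM at E6.0. The 3 stages did not overlap, and the log2 fold change from E5.0 to E6.0 was -0.84 ± 0.11 (adjusted p = 0.000104, edgeR). Cox4i1 gave 159, 150.1 and 156 CPM at E5.0, 147, 141 and 141 CPM at E5.5 and 91.5, 102 and 104 CPM at E6.0. Its E6.0 values lay below all others (-0.66 ± 0.10, adjusted p = 0.000386). Cox5a gave 62.7, 52.9 and 73.5 CPM, then 61.6, 51.5 and 72.1 CPM, then 39.6, 39.2 and 39.6 CPM, so that E5.0 and E5.5 overlapped and E6.0 lay lower (-0.69 ± 0.16). Cox7c gave 149, 111 and 142 CPM at E5.0, 93.9, 109 and 109 CPM at E5.5 and 84.5, 90.9 and 87.6 CPM at E6.0, with no overlap between stages (-0.63 ± 0.12, adjusted p = 0.00263). Cox8a (-0.64 ± 0.18) and Cox6a1 (-0.63 ± 0.19) also fell, with E5.0 and E6.0 values that did not overlap. The call of Cox8a was lost without E5.0 embryo 4 or E6.0 embryo 1 or 2, and that of Cox6a1 without any of these or E5.0 embryo 1.

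**Figure D3:**
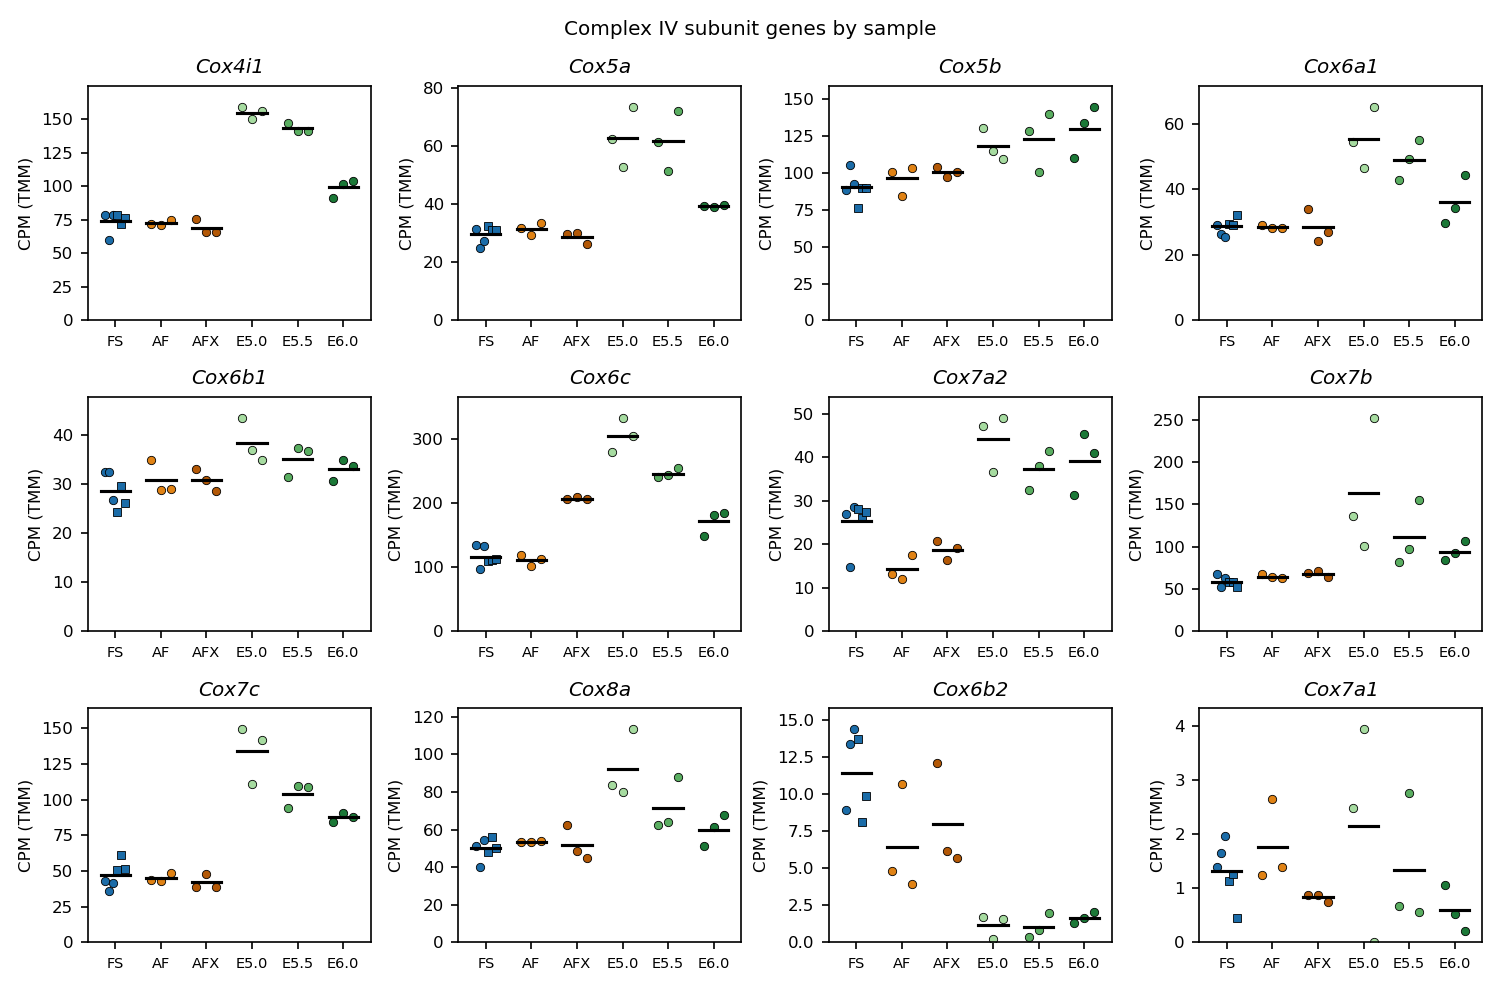
CPM (TMM, linear axes from 0) of 10 widely expressed complex IV subunit genes and the isoforms Cox6b2 and Cox7a1 in every sample; bars are group means and FS squares are line 2. Cox4i1, Cox5a, Cox6c and Cox7c were lowest among the stages at E6.0, Cox5b was not, and Cox6b2 was highest in cultured samples.

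Outside complex IV, Ndufa11 (38.7, 32.2 and 47.9 CPM at E5.0 and 21.7, 18.3 and 25.3 CPM at E6.0, -0.88 ± 0.19), Ndufb7, Atp5j2 and Atp5g1 fell, though the calls of Ndufb7 and Atp5g1 were lost in 9 and 8 of 14 alternatives. Atp5j2, the f subunit of the ATP synthase, gave 71.1, 71.7 and 65.2 CPM at E5.0 and 46.3, 45.0 and 43.0 CPM at E6.0 (-0.65 ± 0.15, adjusted p = 0.00715, edgeR). The only member that rose was Atp5j, coupling factor 6 of the same enzyme, from 89.3, 86.1 and 67.5 CPM to 109, 111 and 122 CPM (0.48 ± 0.13, adjusted p = 0.0153). Its stages did not overlap, and the call was lost without E6.0 embryo 3.

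The step from E5.5 to E6.0 held 3 called members, all lower and all of complex IV, Cox4i1 (-0.53 ± 0.10), Cox6c (-0.52 ± 0.11) and Cox5a (-0.65 ± 0.16), 3.80% of the 79 members beside 4.43% of all genes (1.89% higher and 2.54% lower). The step from E5.0 to E5.5 held 1, Uqcrb, a small subunit of complex III, at 122, 86.9 and 117 CPM and then 56.4, 63.7 and 86.9 CPM (-0.67 ± 0.18, adjusted p = 0.0359), beside 6.82% of all genes (3.07% higher and 3.75% lower). The E5.0 and E5.5 values of Uqcrb overlapped at their edge, and the call was lost without embryo 1 or 4 of E5.0 or embryo 1 or 2 of E5.5. It was also lost with total counts and with the 2 groups fitted alone. Between E5.5 and E6.0, the call of Cox5a was lost without E5.5 embryo 1 or 3 or any E6.0 embryo, and that of Cox6c without E5.5 embryo 2 or 3 or E6.0 embryo 1 or 2. The 3 stage comparisons share samples.

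Among the mitochondrially encoded subunits, the 3 of complex IV fell from E5.0 to E6.0, mt-Co1 by 0.73, mt-Co2 by 0.68 and mt-Co3 by 0.74 on the log2 scale, along with mt-Nd4 and mt-Nd2. Of 12 visceral endoderm markers tested, 10 were lower at E6.0 than at E5.0, and none of the 15 in the list was at 0 in every embryo of a stage. Between E5.5 and E6.0, where their sums were 171 to 221 and 120 to 149 CPM, 1 of 12 was lower. Feeder fibroblast markers summed to 82.7 to 159 CPM at E5.0, 54.9 to 69.6 at E5.5 and 30.2 to 51.3 at E6.0, without overlap, and 2 of 6 tested were lower at E6.0 than at E5.0, with Postn at 0 at every stage and Lum at E6.0. Epiblast and pluripotency markers summed to 3907 to 4130, 5183 to 5580 and 5713 to 7182 CPM, also without overlap, with 2 of 8 higher and 1 lower at E6.0 than at E5.0. Extraembryonic ectoderm markers, at 84.3 to 161, 56.5 to 83.8 and 98.5 to 224 CPM, had 1 of 6 tested lower between those stages. The part of these 4 lists in the complex IV values was not tested.

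Few subunit genes differed between the cultured groups, and their called share was below that of all genes in each comparison. FS against AF gave 4 higher and 6 lower of 81 (12.3%) beside 19.5% of all 16052 genes (8.86% higher and 10.6% lower). FS against AFX gave 3 higher and 3 lower (7.41%) beside 8.70% (3.78% higher and 4.92% lower), and AFX against AF 2 higher and 2 lower (4.94%) beside 8.73% (4.30% higher and 4.42% lower). The medians over the members were -0.08, 0.01 and -0.00 on the log2 scale, beside 0.02, 0.00 and 0.01 over all genes. With total counts they were 0.00, 0.08 and 0.01, beside 0.10, 0.08 and 0.02 over all genes, so the distance from all genes in FS against AF was -0.10 on both scales. These comparisons share groups. Higher or lower without overlap were 10.3% and 10.8% of all genes for FS against AF, 7.54% and 7.61% for FS against AFX, and 13.6% and 13.1% for AFX against AF.

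Ndufs5, an accessory subunit on the outer side of complex I, was the member with the smallest adjusted p in both comparisons of FS cells with EpiSCs. It gave 23.5, 28.9 and 30.7 CPM (lowest, median and highest of 6) in FS cells, 13.2, 14.3 and 14.9 CPM in AF and 12.4, 10.01 and 12.6 CPM in AFX. The FS values lay above all EpiSC values, with log2 fold changes of 0.99 ± 0.13 against AF (adjusted p = 0.000152, edgeR) and 1.26 ± 0.14 against AFX (adjusted p = 3.7e-05). Sdhd gave 30.2, 39.6 and 43.6 CPM in FS cells, 24.1, 19.2 and 27.2 CPM in AF and 26.2, 26.2 and 27.1 CPM in AFX. FS was above both groups, without overlap (0.71 ± 0.14 against AF and 0.54 ± 0.14 against AFX, the latter lost when any AFX passage was left out).

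Cox7a2 (0.82 ± 0.20, adjusted p = 0.00961) and Ndufc1 (0.86 ± 0.26, adjusted p = 0.0281) were also higher in FS than in AF, and the Cox7a2 groups overlapped through line 1 passage 11, at 14.8 CPM. Ndufc2, the partner of Ndufc1 in the membrane arm, was higher in FS than in AFX, at 23.3, 29.8 and 40.2 CPM against 18.3, 16.8 and 21.1 CPM (0.75 ± 0.17, adjusted p = 0.0104), a call lost without AFX passage 15. Genes lower in FS than in AF included the epsilon and delta subunits of the ATP synthase's central stalk. Atp5e gave 9.93, 11.5 and 16.3 CPM in FS and 17.0, 20.1 and 19.4 CPM in AF (-0.66 ± 0.16, adjusted p = 0.00776), and Atp5d gave 44.7, 52.0 and 65.5 CPM and 75.0, 79.3 and 69.2 CPM (-0.50 ± 0.13). The FS values of both lay below AF. Uqcrfs1, Uqcrb, Ndufb10 and Atp5j changed by -0.33 to -0.38, with adjusted p of 0.0315 to 0.0473. These 4 calls were lost in 5 to 10 of 17 alternative fits, and that of Ndufc1 when any AF passage was left out. Feeder fibroblast markers summed to 190 to 281 CPM in FS and 687 to 923 CPM in AF, with 7 of 8 tested lower in FS and Lum at 0 in FS, and visceral endoderm markers to 42.4 to 89.1 and 181 to 279 CPM (5 of 7 tested lower). Extraembryonic ectoderm markers summed to 46.1 to 74.9 CPM in FS and 109 to 191 CPM in AF, without overlap (6 of 7 tested lower, and Elf5 at 0 in AF). Epiblast and pluripotency markers summed to 1927 to 2895 CPM in FS, above AF at 1232 to 1829 CPM and overlapping AFX at 1856 to 2262 CPM. In AFX the sums were 394 to 502 CPM for feeder, 88.0 to 113 for visceral endoderm and 60.5 to 104 for extraembryonic ectoderm markers, and 3 of 8 feeder and 1 of 7 visceral endoderm markers were lower in FS than in AFX, while the smallest adjusted p of an extraembryonic ectoderm marker was 0.0662 (Gata3, -2.01, edgeR). The part of these lists in these differences was not tested.

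**Figure D4:**
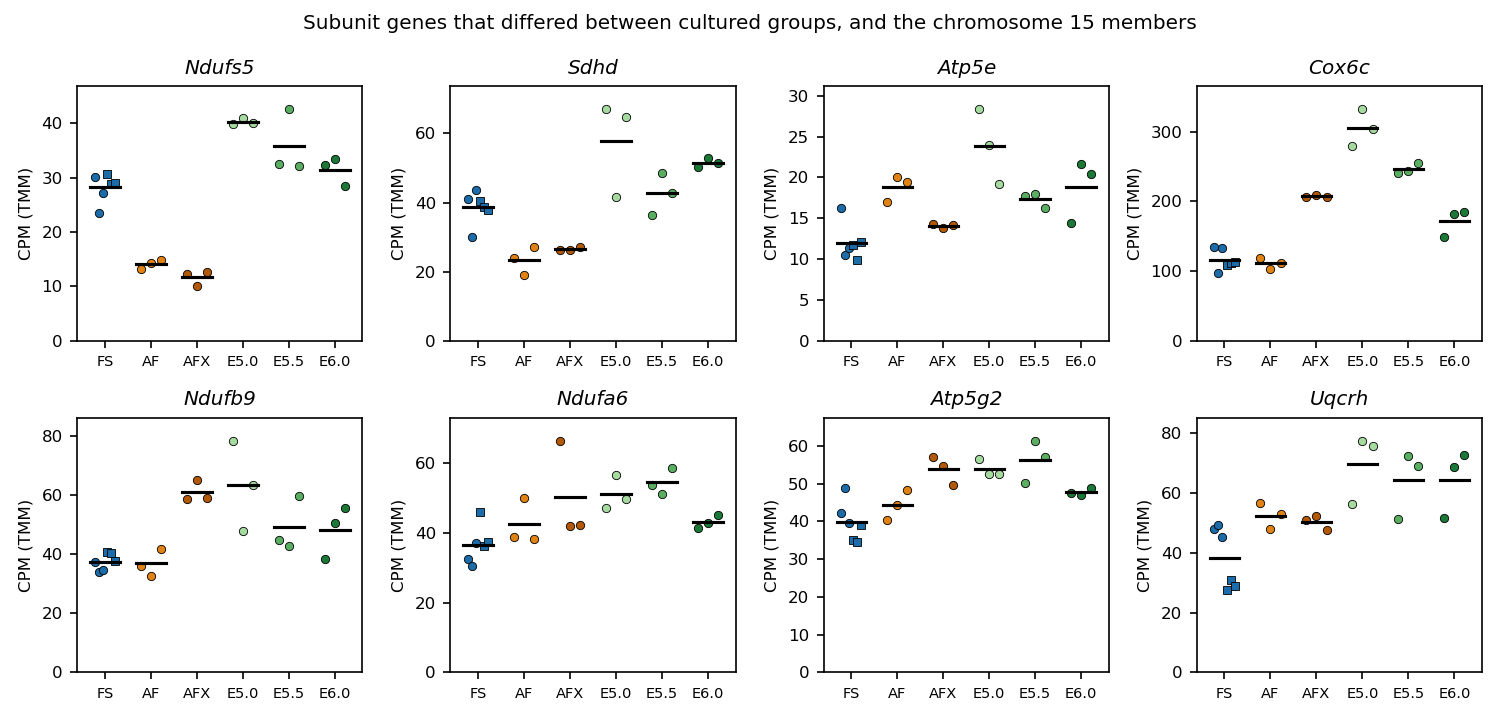
CPM (TMM, linear axes from 0) of Ndufs5, Sdhd, Atp5e, Uqcrh and the 4 members on chromosome 15 (Cox6c, Ndufb9, Ndufa6 and Atp5g2) in every sample; bars are group means and FS squares are line 2. Ndufs5 was low in both EpiSC groups, Cox6c and Ndufb9 were high in AFX only among the cultured groups, and Uqcrh split the FS lines.

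Both members higher in AFX than in AF lie on chromosome 15. Cox6c gave 119, 103 and 112 CPM in AF, 207, 209 and 206 CPM in AFX and 96.8, 112 and 135 CPM (lowest, median and highest of 6) in FS. AFX lay above both other groups (0.89 ± 0.13 against AF, adjusted p = 0.000879, edgeR, and FS at -0.84 ± 0.11 against AFX). Ndufb9, an accessory subunit at the tip of the membrane arm, gave 36.2, 32.7 and 42.0 CPM in AF and 58.7, 65.3 and 59.1 CPM in AFX (0.72 ± 0.13, adjusted p = 0.00311). The remaining members of chromosome 15 were Atp5g2, which was lower in FS than in AFX (-0.44 ± 0.12, adjusted p = 0.0378, a call lost in 9 of 17 alternatives), and Ndufa6, which was not called in any of these comparisons.

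Over all 561 genes of chromosome 15 tested, the median log2 fold change of AFX against AF was 0.52, and 34.8% were called higher. The medians of the other autosomes lay between -0.07 and 0.06. Each AFX passage alone was 0.51 to 0.54 above the AF mean on chromosome 15. With the genes of chromosome 15 left out, a setting added after the data were seen, the 3 members lower in FS than in AFX and the 2 higher in AFX than in AF drop out by construction, and the 3 higher in FS than in AFX stayed called. In AFX against AF, the calls of Sdha and Atp5d were lost too, which left 0 of 77 members called by edgeR (10 at an unadjusted p under 0.05), and 4 by the Wald test of DESeq2. What raised chromosome 15 in AFX was not tested.

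**Figure D5:**
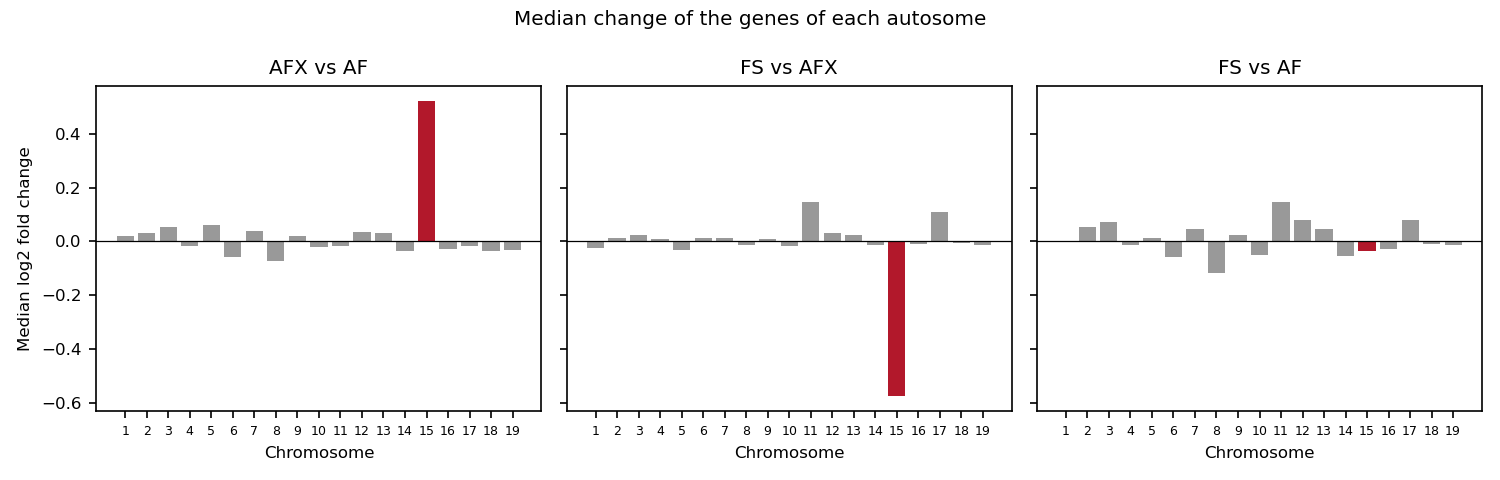
Median log2 fold change over the genes tested on each autosome for the 3 comparisons of cultured groups, with chromosome 15 in red. Chromosome 15 stood at 0.52 in AFX against AF and at -0.57 in FS against AFX, while it lay at -0.04 in FS against AF.

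The members lower in AFX than in AF were Sdha, at 173, 147 and 169 CPM in AF and 134, 119 and 126 CPM in AFX (-0.37 ± 0.11, adjusted p = 0.0416, edgeR), and Atp5d (-0.51 ± 0.15, adjusted p = 0.0436). Both calls were lost without AF passage 14 or 16 or AFX passage 15 or 16, and with total counts. Feeder fibroblast markers summed to 394 to 502 CPM in AFX and 687 to 923 CPM in AF (6 of 8 tested lower and 1 higher in AFX), and visceral endoderm markers to 88.0 to 113 and 181 to 279 CPM (3 of 7 tested lower), with Afp, Apoa4 and Hnf4a at 0 in all AFX samples. Extraembryonic ectoderm markers summed to 60.5 to 104 CPM in AFX and 109 to 191 CPM in AF (3 of 7 tested lower), with Elf5 at 0 in both and Cdx2 at 0 in AFX. Epiblast and pluripotency markers summed to 1856 to 2262 CPM in AFX and 1232 to 1829 CPM in AF, without overlap. The part of these lists in this comparison was not tested.

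The 2 FS lines differed in 1 member of 81 (1.23%), beside 3.85% of all genes (2.65% higher and 1.20% lower). Uqcrh, the acidic hinge protein of complex III that helps bind cytochrome c1, gave 48.0, 49.3 and 45.3 CPM in line 1 and 27.7, 30.7 and 28.7 CPM in line 2. The lines did not overlap (-0.73 ± 0.11, adjusted p = 0.00151, edgeR), as was so for 14.9% (higher) and 12.4% (lower) of all genes. AF gave 56.4, 47.9 and 52.8 CPM and AFX 51.0, 52.2 and 47.5 CPM.

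Tissue-restricted isoforms of complex IV made up a small share of its RNA, 13.2 to 23.7 CPM in FS cells beside 510 to 600 CPM for the widely expressed genes. Cox6b2, the testis form of Cox6b1, gave 3.90, 9.40 and 14.4 CPM in cultured samples and 0.197, 1.56 and 2.02 CPM in epiblasts. All cultured samples lay above all epiblasts, a pattern shown by 5.39% of all genes (2.68 ± 0.31, adjusted p = 1.118e-07, edgeR), whereas Cox6b1 itself gave -0.24 with TMM and -0.02, no longer called, with total counts. The opposite held for Cox7b2, another testis form, at 0 counts in all 12 cultured samples and at 0.107 to 1.18 CPM in the 9 epiblasts, too few counts for the test. Ndufa4l2 (0.26 ± 0.40), Cox4i2 (0.25 ± 0.49) and the muscle form Cox7a1 (0.08 ± 0.48), all at low levels, did not pass. Cox6a2 and Cox8c, a muscle and a testis form, were not tested. Cox6a2 was at 0 in most samples with a highest value of 0.845 CPM, and Cox8c was at 0 in all but 1 epiblast.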

How the data were processed

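RNA-seq counts of 21 mouse samples were analysed from a single table. Per the submitters' processing notes, the authors used Trim Galore, TopHat2 2.1.0, featureCounts 1.5.0 and the mm10 genome, and the deposited values are raw counts per gene. The treatment of multi-mapping reads and the strand setting are not given in the sources used here. Samples were grouped by their titles.

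Genes were filtered with filterByExpr, scaled by TMM and tested with edgeR 4.0.16 (quasi-likelihood, robust, Benjamini-Hochberg over all genes tested, threshold 0.05) in R 4.3.3. The cultured groups, the epiblast stages and all samples were fitted separately. DESeq2 1.42.0, other filters and scalings, a replicate block and leaving out each sample were alternatives. The test was checked on simulated counts. CPM were computed over all 21 samples, and CPM per kb with union exon lengths of GENCODE M21 (84 of 84 members matched). Precision is limited by depth, 5827093 to 15916800 counts per sample, and counting floors cover counting error only. No sample was left out of the main fits.

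Any member could be named. Values by sample were given for the up to 6 members with the smallest adjusted p in each comparison, the isoforms and the most abundant members. The ribosomal list holds Rpl genes only, since its rule drops names containing ps. The members and lists were chosen with earlier results of these data known.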

Additional observations from a re-analysis of the deposited data

Results flagged for a closer look

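In 8 of the 84 members, 1 of the 6 FS samples stood apart from the others (a gap above Dixon's 95% critical value for 6 samples). Chance gives about 1 in 20 for a gene taken alone. Cox7b2 and Cox8c, at 0 in all FS samples, could not be scored. Most flags came from line 1 passage 11, the FS library with the fewest counts (7753188), so they are not independent of each other. In line 1 passage 11, Cox4i1 was low at 60 CPM (others 72.2 to 78.8), Cox7a2 at 14.8 (26.1 to 28.5), Ndufab1 at 40.7 (67.7 to 80.1), Uqcrc1 at 76.7 (93.3 to 99.5) and Atp5l at 6.62 (8.54 to 9.64). In line 1 passage 10, Atp5e was high at 16.3 CPM (9.93 to 12.1). In line 2 passage 13, Uqcrfs1 was low at 41.1 CPM (46.7 to 49.9) and Cox6a2 high at 0.845 CPM (0 to 0.057), which came from 8 counts.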

How the results depend on the processing

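Scaling to total counts, added after the data were seen, gave 38 called members for cultured against epiblast samples (median -0.0904) and 22 for FS against E5.5 (median -0.1112), and a median of 0.004 for FS against AF. Under it Atp5f1 (0.0552), Ndufs1 (0.0002), Atp5h (0.0415), Uqcrfs1 (0.0116) and Atp5g2 (0.0165) changed sign between cultured and epiblast samples. For E5.5 against E5.0 it gave 0 called members (edgeR, 11 at an unadjusted p under 0.05), as did fitting the 2 groups alone (0, with 6 unadjusted). FS against AF gave 6 without a count filter. AFX against AF gave 7 with DESeq2 and 7 with the FS lines as separate groups, and 2 with the 2 groups alone. The lines gave 5 with DESeq2 and 2 with no filter, a minimum mean of 5 CPM or the 2 groups alone. E6.0 against E5.5 gave 5 with DESeq2 and 5 with the 2 groups alone. Without chromosome 15, also added later, which removes 4 members by construction, FS against AFX gave 3 and AFX against AF 0 (edgeR, 10 unadjusted, 4 by DESeq2). Leaving out 1 sample gave 5 to 12 (FS against AF; 5 without FS line 2 passage 13 or AF passage 14 or 16), 3 to 8 (FS against AFX; 3 without AFX passage 15), 2 to 4 (AFX against AF; 2 without AF passage 14 or 16 or AFX passage 15 or 16), 1 to 2 (lines), 0 to 3 (E5.5 against E5.0), 1 to 2 (E6.0 against E5.5), 7 to 16 (E6.0 against E5.0), 35 to 45 (FS against E5.5) and 52 to 59 (cultured against epiblast). The medians ranged from -0.167 to -0.0715 for E5.5 against E5.0 and from -0.1042 to 0.0384 for E6.0 against E5.5. With the replicate number as a block, AFX against AF held 2 called members (Cox6c and Ndufb9), and E5.5 against E5.0, E6.0 against E5.5 and E6.0 against E5.0 held 1, 3 and 9. Same-numbered samples did not deviate together (r of -0.135, -0.101 and 0.205 between AFX and AF), so the numbers were not taken to pair the samples. Apart from the scaling, the cause of these shifts was not tested.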
